A study of Xenopus laevis with 4 samples.

Results

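Nuclear genes were followed in *X. laevis* embryos injected with antisense oligonucleotides against the TBP family. They encode the mitochondrial respiratory chain, solute carriers of the slc25a family and the protein translocases of both mitochondrial membranes. Members were chosen by name, from the gene column of the deposited table without the final .L or .S. The choice was made with earlier results of these data known. Roles were given by the symbol alone, not by where a product is found. The symbols begin with nduf (complex I), sdha to sdhd (complex II), uqcr or cyc1 (complex III), cycs (cytochrome c), cox and a digit (complex IV), atp5 (ATP synthase), slc25a and a digit (carriers), or tim, timm or tomm and a digit (translocases). They gave 197 gene rows of 120 symbols, out of 45098 rows in the table. No row was found under cyc1, sdhb, slc25a5 or slc25a6, and these genes were not analysed here.

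TKD embryos (2 samples) carried a triple knockdown of TBP, TBP2 and TLF, made by injecting antisense oligonucleotides at the 1-cell stage, and the 2 control samples came from embryos injected with water. Each sample held 10 whole embryos collected at stage 10.5, which in normal development is the early gastrula. The study reports that triple-knockdown embryos stopped developing before gastrulation, with no sign of cells moving inward. The groups therefore differed in developmental state as well, and effects of the arrest were not tested apart from those of the knockdown. The labels give 0.8 ng of the oligonucleotide mixture, whereas the study's methods give a separate dose for each oligonucleotide. The controls carried no oligonucleotide of another sequence, so knockdown and injected oligonucleotide cannot be told apart, and nothing in the labels says that the samples came from separate clutches, so p-values measure only the spread between these samples.

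The agents that separate the groups were the following DMED-modified DNA oligonucleotides, printed 5′ to 3′ with the unmodified centre in capitals. The lower case flanks carry 10 modified linkages in each, which protect the oligonucleotide, and the centre leaves RNase H able to cut the paired mRNA.
TBPAS3: tgcatTTCGCGCTctaag
TBP2-AS167: tcatcGTATGGAgtcat
TLF-AS93: atatcCAGTGCCacatc

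The respiratory chain passes electrons from NADH (complex I) and succinate (complex II) through complex III and cytochrome c to oxygen at complex IV, and ATP synthase uses the proton gradient this builds. Most subunits are encoded in the nucleus, made in the cytosol and imported through the TOM and TIM translocases, while a few core subunits come from mitochondrial DNA. The frog egg stores both mitochondria and mRNAs for their proteins, and the embryo starts its own transcription at the mid-blastula transition, before the stage sampled here. A transcript in a stage 10.5 embryo can therefore be a maternal store, a zygotic product or a mixture of both, and in whole embryos fewer cells of a type and less RNA per cell cannot be told apart.

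The table holds the mean normalized count of each group, and the reads of each library were solved from these means as described in the processing notes. Within each group the library with more reads is called deeper and the other shallower, since the table does not say which carries which replicate number. They held 2523060 and 1414476 reads in the TKD group, against 5222085 and 3436848 reads in the control group. Of the targets, tbp.S had 32.9 and 19.8 normalized counts in TKD embryos, against 57.8 and 87.7 in control embryos (deeper library first, here and throughout), with a log2 fold change of −1.32 ± 0.47 (SE) and an adjusted p of 0.0943 by limma-voom. The row tbp.L did not pass the test (adjusted p = 0.638), tbpl2.L had too few reads to be tested, and tlf was not matched under the symbol tbpl1. Of 12 rows for blood, muscle, glia and other types that a gastrula should lack, 7 were at 0 in all 4 libraries, and mbp.S stood highest with 23.5 and 56.2 normalized counts in TKD embryos, against 30.4 and 35.2 in control embryos. All 18 rows of gastrula genes had reads, 7 of them higher and 7 lower in TKD embryos.

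Members as a group were shifted upward in TKD embryos. They took 0.953% (95% Wilson interval 0.941 to 0.965) and 1.11% (1.09 to 1.13) of TKD reads, against 0.721% (0.714 to 0.729) and 0.651% (0.642 to 0.659) of control reads, with intervals that cover counting error only. The totals behind these shares leave out 10 rows, and the rows kept hold 93.1% of TKD signal and 89.2% of control signal. The shares are therefore too high in both groups, and more so in control embryos. The TKD shares were both above the control shares. Of the deposited group means, 144 members were higher in TKD and 48 were lower, with 5 at 0 in both groups, and the median log2 ratio was 0.45 over the 188 members above 0 in both groups.

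**Figure D1:**
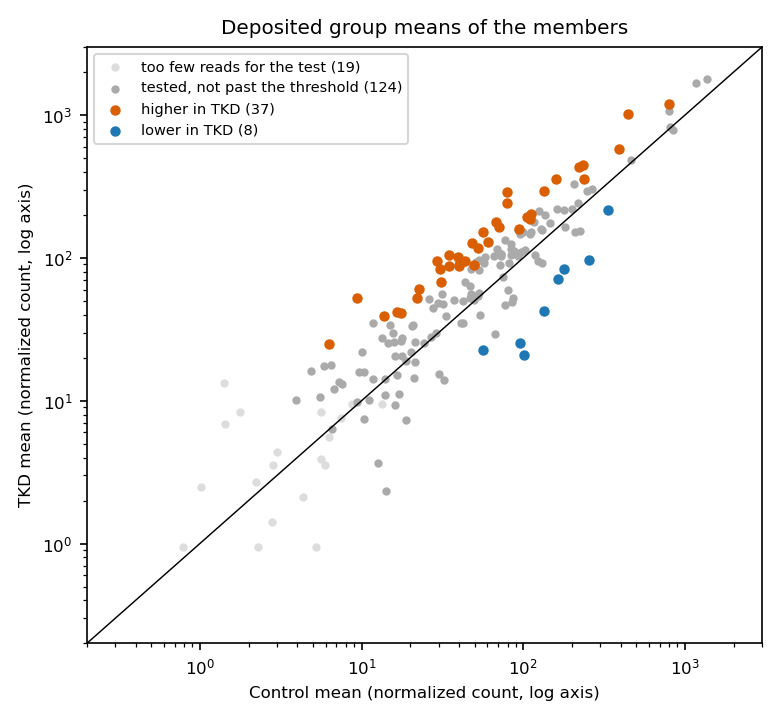
Deposited mean normalized count of each member in TKD embryos (vertical, log axis) against control embryos (horizontal, log axis), for the 188 members above 0 in both groups, with the line of equal means. Members called by limma-voom are orange (37 higher in TKD) or blue (8 lower), and most points lie above the line.

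The test used all rows that reached 10 reads in 2 or more libraries, 169 of the 197 members among them. At a false discovery rate of 10% over 17026 rows, 37 of the 169 members tested rose in TKD embryos and 8 fell. These are 21.9% and 4.73% of the members tested, whereas 10.3% of all rows rose and 14.3% fell. The median log2 fold change was 0.47 for the members (quartiles 0.05 and 0.90) and 0.04 for all rows (quartiles −0.60 and 0.57). For 85 members (50.3%) the values of the TKD libraries all exceeded those of the control libraries, against 29.9% of all rows, and they all lay below for 23 members (13.6%), against 30.7% of all rows. The other 61 members overlapped. No called member was among these 61, so a lack of overlap in a called row adds no support to its call.

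Scaling the libraries by their total reads in place of size factors moved the median of all rows by 0.17, to 0.21, and the share of calls that were lower from 58.2% to 41.9%. With that scaling 52 members rose and 6 fell (30.8% and 3.55%), beside 16.2% of all rows that rose and 11.6% that fell. The member median stood 0.44 above that of all rows under either scaling. Rescaling moves all rows by nearly the same amount, so this gap cannot test the choice of scaling. With the deeper or the shallower TKD library left out, the member median was 0.59 or 0.42, beside 0.04 for all rows in both fits. Without the deeper or the shallower control library it was 0.52 or 0.44, beside 0.01 or 0.02. Fewer members, and fewer of all rows, were called in each of these fits, which leave a single library in a group. Only a minority of the members called from all libraries stayed called in every such fit. In each of these 4 fits the 45 members called from all libraries kept their direction. None of the 45 overlapped between the groups, so leaving out a library could not reverse their direction. The kept direction is therefore no test of these calls. A short list of maternal and oocyte transcripts was counted as well. Of 11 rows on the list (zp4, mos and dazl among them) 8 were higher in TKD embryos and 0 were lower, beside 10.3% and 14.3% of all rows. Their summed normalized counts were 8011 and 7899 in TKD embryos, against 3600 and 3918 in control embryos. Whether maternal RNA has any part in the members' change was not tested.

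**Figure D2:**
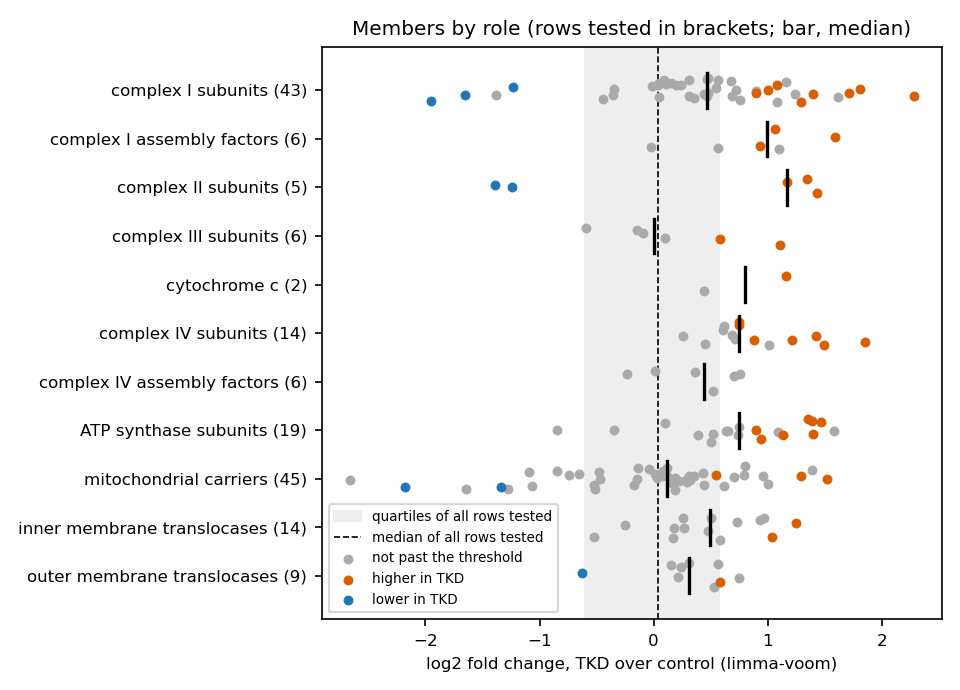
log2 fold change (TKD over control, limma-voom) of each member tested, by role, with the number of rows tested in brackets and the role's median as a black bar. Orange points rose, blue points fell and grey points did not pass the threshold, the grey band and dashed line are the quartiles and median of all rows tested, and the blue points lie in complexes I and II, the carriers and the outer membrane translocases.

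Complex II, succinate dehydrogenase, split between sdha and its membrane anchors, and no row was found under sdhb. The gene sdha encodes the flavoprotein that oxidises succinate, and both its homeologs fell. The row sdha.L had 98.7 and 94.3 normalized counts in TKD embryos, against 247 and 265 in control embryos (log2 fold change −1.39 ± 0.24, adjusted p = 0.0106 by limma-voom). The row sdha.S had 59.2 and 109 in TKD embryos, against 212 and 146 in control embryos (−1.24 ± 0.36, adjusted p = 0.0539). Neither row overlapped between the groups.

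The membrane anchors sdhc and sdhd, which hold the enzyme in the inner membrane and bind ubiquinone, rose. The row sdhd.S had 404 and 306 normalized counts in TKD embryos, against 152 and 168 in control embryos (1.17 ± 0.23, adjusted p = 0.0152). The row sdhd.L had 116 and 87.6 in TKD embryos, against 34.5 and 44.6 in control embryos (1.43 ± 0.32, adjusted p = 0.0247). The row sdhc.S had 118 and 187 in TKD embryos, against 57.3 and 55.6 in control embryos (1.34 ± 0.31, adjusted p = 0.0267), and sdhc.L had at most 1.57 in any library and was not tested. Again no TKD library reached into the control range. Without the deeper TKD library, sdha.S (−0.71, adjusted p = 0.383), sdhd.S (0.95, adjusted p = 0.119) and sdhd.L (1.19, adjusted p = 0.186) missed the threshold, as did sdha.S without the deeper control library (−0.94, adjusted p = 0.135) and sdhc.S without the shallower TKD library (1.06, adjusted p = 0.112).

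The split can be read within each library, where no scaling enters. Reads of sdhd and sdhc together were 4.04 and 2.85 times those of sdha in TKD embryos, against 0.530 and 0.656 times in control embryos. The ratio was above 1 in both TKD libraries and below 1 in both control libraries. It was chosen after the values were seen and is given as a description. The sdhaf2 rows, for a factor that helps attach FAD to sdha, had too few reads to be tested.

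In complex I, 8 of 43 subunit rows tested rose and 3 fell, with a median of 0.47. These are 18.6% and 6.98%, against 10.3% higher and 14.3% lower among all rows. Sorted by the textbook division of the enzyme, a sorting made after the values were seen, the rows that fell belonged to the catalytic core, which carries the flavin and the iron-sulfur clusters, and the rows that rose to the accessory subunits around it. Of the 9 core rows tested, 3 fell (33.3%) and 0 rose (median −0.36). Of the 34 accessory rows tested, 0 fell and 8 rose (23.5%, median 0.62). Without the deeper TKD library 0 core rows fell (core median −0.09) and 4 accessory rows rose, and without the shallower TKD library 2 core rows fell (−0.48) and 2 accessory rows rose. Without the deeper control library 2 core rows fell (−0.61) and 3 accessory rows rose, and without the shallower control library 3 core rows fell (−0.07) and 4 accessory rows rose. With library totals the core median was −0.19, with 3 core rows lower.

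Of the core, ndufs1 encodes the largest iron-sulfur subunit. The row ndufs1.L had 62.1 and 81.0 normalized counts in TKD embryos, against 148 and 182 in control embryos (−1.23 ± 0.29, adjusted p = 0.030), and fell without overlap between the groups. The homeolog ndufs1.S had 13.2 and 28.1 in TKD embryos, against 9.13 and 26.6 in control embryos, which overlap (0.31, adjusted p = 0.789). The core subunit ndufv1, which binds NADH, had 150 and 152 normalized counts for its L row in TKD embryos, against 109 and 114 in control embryos (0.44, adjusted p = 0.233). The call of ndufs1.L was lost without the deeper TKD library (adjusted p = 0.238).

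Of the accessory subunits, ndufa8, ndufs5 and ndufb7 share a twin CX9C fold that is oxidised in the intermembrane space, and each had a row that rose. The row ndufa8.L had 95.9 normalized counts in each TKD library, against 29.4 and 29.0 in the control libraries (1.71 ± 0.31, adjusted p = 0.0127), a wide gap beside the spread within either group. Its homeolog ndufa8.S had 15 and 11.6 in TKD embryos, against 2.03 and 0.783 in control embryos, too few reads for the test. The row ndufa5.S, for a subunit of the matrix arm, had 38.6 and 66.1 in TKD embryos, against 11.7 and 7.05 in control embryos (2.28 ± 0.56, adjusted p = 0.0329), the highest fold change among the members tested. The groups of ndufa5.L did not overlap either, with 24.4 and 19.8 in TKD embryos, against 10.6 and 9.40 in control embryos, although the row missed the threshold (1.16, adjusted p = 0.182). The calls of ndufs5.L and ndufb7.L were each lost without 3 of the libraries in turn, both TKD libraries among them (adjusted p 0.105 to 0.188 for ndufs5.L, with the shallower control the third, and 0.242 to 0.518 for ndufb7.L, with the deeper control the third).

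Of 6 rows tested for complex I assembly factors, proteins that build the enzyme and do not stay in it, 3 rose and 0 fell (median 0.99). The row ndufaf4.L had 220 and 170 normalized counts in TKD embryos, against 93.3 and 118 in control embryos (0.93 ± 0.26, adjusted p = 0.0476). The row ndufaf3.L, whose product works with that of ndufaf4, had 43.3 and 39.7 in TKD embryos, against 9.63 and 23.5 in control embryos (1.59 ± 0.51, adjusted p = 0.0739). In both rows the TKD libraries were above the control libraries. The remaining row that rose lost its call whichever library was left out. The call of ndufaf4.L was lost without the deeper TKD (adjusted p = 0.290) or the deeper control library (0.235), and that of ndufaf3.L without these (0.269 and 0.478) or the shallower TKD library (0.159).

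**Figure D3:**
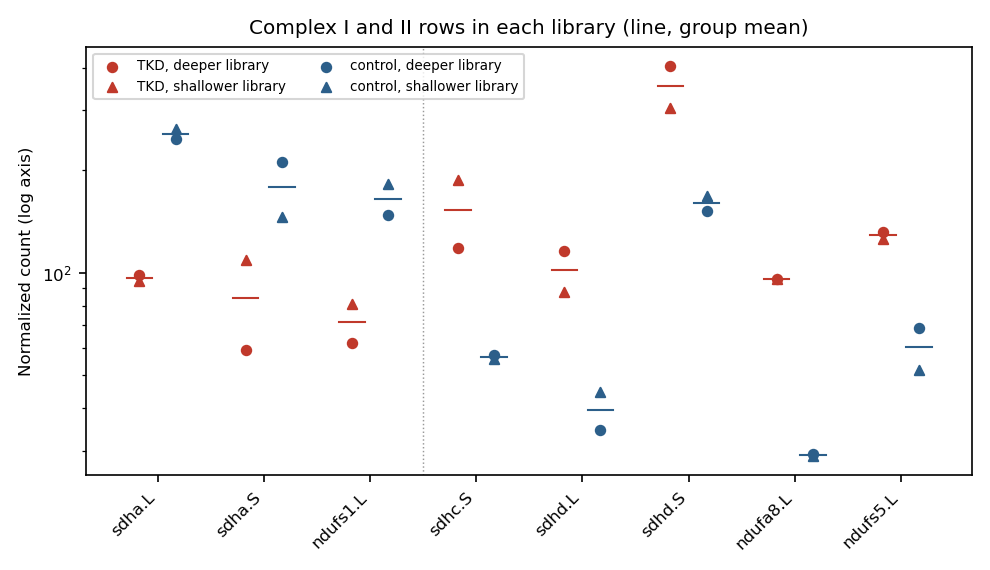
Normalized counts (log axis) of rows of complexes I and II in each library, with TKD (red) left of control (blue), circles for the deeper and triangles for the shallower library, and a line at the group mean. The rows were picked from those called. Left of the dotted line stand sdha.L, sdha.S and ndufs1.L, lower in TKD (sdha.L 98.7 and 94.3 against 247 and 265). Right of it stand anchors and accessory subunits, higher in TKD (ndufa8.L 95.9 and 95.9 against 29.4 and 29.0). Core rows that were not called, such as ndufv1.L with 150 and 152 against 109 and 114, are not shown.

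Complex III showed no common direction, with 2 of 6 rows higher, 0 lower and a median of 0.00. The share higher was 33.3%, against 10.3% of all rows, of which 14.3% were lower. The row uqcrc1.L, a core protein of the matrix side, had 307 and 278 normalized counts in TKD embryos, against 153 and 117 in control embryos (1.11 ± 0.23, adjusted p = 0.0192). The Rieske iron-sulfur protein had homeologs that differed in their calls. The row uqcrfs1.S had 1197 and 1182 in TKD embryos, against 779 and 813 in control embryos (0.58 ± 0.18, adjusted p = 0.0629), and uqcrfs1.L had 824 and 762 in TKD embryos, against 873 and 817 in control embryos (−0.09, adjusted p = 0.768, and 0.09 with library totals). The groups overlapped for uqcrfs1.L, and the difference between the homeologs was not tested. The call of uqcrc1.L was lost without the deeper TKD library (adjusted p = 0.118), and that of uqcrfs1.S when any library was left out (adjusted p 0.155 to 0.299).

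Cytochrome c, the soluble carrier between complexes III and IV and a trigger of apoptosis once released, was higher. The row cycs.L had 874 and 1148 normalized counts in TKD embryos, against 458 and 438 in control embryos (1.16 ± 0.20, adjusted p = 0.0114). The row cycs.S had 1061 and 1078 in TKD embryos, against 711 and 875 in control embryos, with no overlap but no call (0.44 ± 0.19, adjusted p = 0.159, and 0.0568 with library totals).

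In complex IV, cytochrome c oxidase, 7 of 14 subunit rows tested rose, 0 fell, and 14 of 14 fold changes were above 0 under size factors (median 0.75). Of all rows tested, 10.3% rose, 14.3% fell, and 8827 of 17026 fold changes were above 0. The nuclear subunits of complex IV surround a core made from mitochondrial DNA. The row cox5b.2-like.L, for the zinc-binding subunit on the matrix side, had 272 and 309 normalized counts in TKD embryos, against 81.6 and 76.7 in control embryos (1.85 ± 0.23, adjusted p = 0.00403), the lowest adjusted p among the members tested. The row cox7a2.1 had 199 and 159 in TKD embryos, against 65.4 and 70.5 in control embryos (1.42 ± 0.26, adjusted p = 0.0124). The small membrane subunit cox7b rose in both homeologs, with 159 and 170 for cox7b.L in TKD embryos, against 72.5 and 68.9 in control embryos (1.21 ± 0.25, adjusted p = 0.0179). TKD libraries were above control libraries in each of these rows. The rows cox4i1.L and cox4i1.S, for a large regulatory subunit, were also above in both TKD libraries without passing the test (0.71, adjusted p = 0.179, and 0.69, adjusted p = 0.195). With a library left out, 3 rows rose without either TKD library, 4 when the deeper control was dropped and 6 when the shallower control was, and cox7a2.1 missed the threshold without the deeper TKD library (adjusted p = 0.103). The call of cox7b.S was lost without the deeper TKD (adjusted p = 0.223), the shallower TKD (0.10) or the deeper control library (0.226).

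Complex IV assembly factors had 0 calls in 6 rows by limma-voom (median 0.44), where 10.3% of all rows rose and 14.3% fell. The row cox19.S, for a copper-handling protein of the intermembrane space, had 131 and 184 normalized counts in TKD embryos, against 92.8 and 93.2 in control embryos (0.70 ± 0.26, adjusted p = 0.113, and 0.0581 with library totals).

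Among all rows 10.3% rose and 14.3% fell. In ATP synthase, 7 of 19 rows tested rose (36.8%) and 0 fell (median 0.75). They include both homeologs of the alpha subunit of the F1 head, with 391 and 503 normalized counts for atp5a1.L in TKD embryos, against 274 and 199 in control embryos (0.90 ± 0.24, adjusted p = 0.0432). The row atp5j2.S, for subunit f of the membrane part, had 117 and 139 in TKD embryos, against 37.0 and 59.5 in control embryos (1.47 ± 0.32, adjusted p = 0.0229). The row atp5d.S, for the delta subunit of the central stalk, had 88.4 and 86.0 in TKD embryos, against 32.5 and 36.8 in control embryos (1.35 ± 0.31, adjusted p = 0.026). None of these rows overlapped between groups. The calls of atp5a1.L and atp5a1.S were lost without the shallower TKD library (adjusted p = 0.161 and 0.135), and that of atp5a1.L also without the shallower control library (0.127).

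The beta subunit, where ATP is made, did not pass the test. The row atp5b.S had 1660 and 1936 normalized counts in TKD embryos, against 1560 and 1196 in control embryos (0.39 ± 0.21, adjusted p = 0.235), and atp5b.L had 1426 and 1941 in TKD embryos, against 1226 and 1121 in control embryos (0.50 ± 0.21, adjusted p = 0.142). Both passed with library totals (adjusted p = 0.0954 and 0.060). Within libraries, alpha reads were 0.247 and 0.256 times beta reads in TKD embryos, against 0.186 and 0.170 times in control embryos. The 2 ranges did not overlap. With a library left out, 2 rows of ATP synthase rose without the shallower TKD, 4 without the deeper TKD and 6 without either control library. The call of atp5d.S was lost without the deeper TKD (adjusted p = 0.147) or the deeper control library (0.117), and that of atp5j2.S without the deeper control library (0.110).

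**Figure D4:**
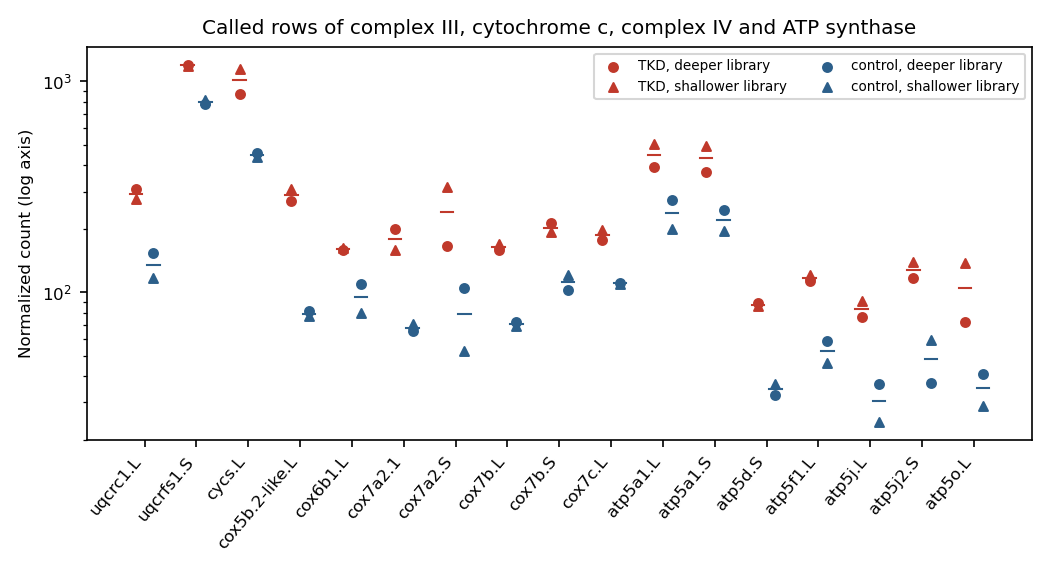
Normalized counts (log axis) of the called rows of complex III, cytochrome c, complex IV and ATP synthase in each library, with TKD (red) left of control (blue), circles for the deeper and triangles for the shallower library, and a line at the group mean. Rows are shown because they were called, and in each both TKD libraries lie above both control libraries, as for cox5b.2-like.L with 272 and 309 against 81.6 and 76.7.

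The carriers were divided in direction. Of 45 carrier rows tested, 3 rose, 2 fell, and 27 fold changes were above 0 and 18 below (median 0.12). These are 6.67% and 4.44% of the carrier rows tested, against 10.3% higher and 14.3% lower among all rows. Dropping the deeper or the shallower TKD library gave a carrier median of 0.10 or 0.03, dropping the deeper or the shallower control library gave 0.15 or 0.01, and library totals gave 0.29. Over the same totals as for all members, the carriers took 0.179% and 0.206% of TKD reads, against 0.174% and 0.153% of control reads. Subunits and cytochrome c together had 28 of 89 rows higher and 5 lower (31.5% and 5.62%, median 0.63). Without the carriers, the members had 34 of 124 rows higher and 6 lower (27.4% and 4.84%, median 0.57). The difference between carriers and subunits was not tested.

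The largest fall among the called members was that of slc25a29, a carrier of basic amino acids. The row slc25a29.L had 30.1 and 11.6 normalized counts in TKD embryos, against 90.8 and 112 in control embryos (−2.18 ± 0.51, adjusted p = 0.0275). The row slc25a29.S had 38.6 and 19.8 in TKD embryos, against 59.3 and 73.6 in control embryos (−1.09 ± 0.43, adjusted p = 0.126), also without overlap. The row slc25a26.L, for the carrier of S-adenosylmethionine, had 20.7 and 24.8 in TKD embryos, against 66.4 and 47.0 in control embryos (−1.34 ± 0.45, adjusted p = 0.0809, and 0.111 with library totals). In these 3 rows both TKD libraries were the low ones.

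Of the carriers that rose, slc25a3 imports the phosphate used by ATP synthase. The row slc25a3.S had 534 and 625 normalized counts in TKD embryos, against 409 and 377 in control embryos (0.55 ± 0.19, adjusted p = 0.0927), while slc25a3.L had 713 and 949 in TKD embryos, against 939 and 682 in control embryos, which overlap (0.03, adjusted p = 0.943). The row slc25a16.L, linked to coenzyme A in mitochondria, had 63.0 and 41.3 in TKD embryos, against 21.3 and 22.7 in control embryos (1.29 ± 0.40, adjusted p = 0.066). The row slc25a40.L, a relative of the glutathione carrier slc25a39, had 48.9 and 33.1 in TKD embryos, against 10.1 and 25.1 in control embryos (1.52 ± 0.53, adjusted p = 0.0922). Of these 5 carrier calls, that of slc25a29.L held whichever library was left out, and each of the other 4 was lost without 3 or more libraries in turn (adjusted p 0.103 to 0.528), the deeper TKD and the deeper control among them. The rows of the ADP/ATP carrier slc25a4, which is prominent in muscle, had at most 4.96 normalized counts in any library and were not tested.

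Among the translocases, 3 of 23 rows rose and 1 fell (median 0.48), which is 13.0% and 4.35%, against 10.3% and 14.3% of all rows. The share that rose was near that of all rows. The small TIM proteins timm8a and timm13 chaperone membrane proteins across the intermembrane space as partners, and both had a row that rose. The row timm13.L had 105 and 86.0 normalized counts in TKD embryos, against 33.0 and 54.8 in control embryos (1.25 ± 0.35, adjusted p = 0.0476). The row timm8a.L had 69.6 and 106 in TKD embryos, against 40.6 and 39.1 in control embryos (1.04 ± 0.33, adjusted p = 0.0727). The row timm22.S, for the carrier translocase pore, was not called. It had 165 and 265 in TKD embryos, against 199 and 161 in control embryos (0.17, adjusted p = 0.715).

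In the outer membrane, a row of the pore rose and a row of a receptor fell. The pore tomm40.S had 336 and 380 normalized counts in TKD embryos, against 229 and 247 in control embryos (0.58 ± 0.20, adjusted p = 0.0873). The receptor tomm70a.S, which takes up carrier precursors, had 216 and 217 in TKD embryos, against 372 and 299 in control embryos (−0.63 ± 0.22, adjusted p = 0.0927, and 0.192 with library totals). The groups did not overlap in either row. Of the 4 translocase calls, 0 held without the deeper TKD or the deeper control library, and for timm13.L the adjusted p was then 0.254 and 0.290.

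The genome of *X. laevis* is allotetraploid, and L and S homeologs have rows of their own that may share reads where their sequences match, so the division between them is uncertain. Of 72 pairs among the members, 55 had both rows tested. In 41 pairs both fold changes had 1 sign and in 14 they had opposite signs. Both homeologs rose for atp5a1, cox7b and sdhd, and both fell for 2 pairs, that of sdha among them. A further 16 pairs had 1 homeolog called and 34 had none. No pair held a higher and a lower call, so the count of opposite calls was 0. The widest gap, 2.25 on the log2 scale, was that of atp5o, the stalk subunit OSCP. The row atp5o.L had 72.4 and 137 normalized counts in TKD embryos, against 41.1 and 29.0 in control embryos (1.39 ± 0.40, adjusted p = 0.0538), while atp5o.S had 17.9 and 13.2 in TKD embryos, against 42.1 and 18.0 in control embryos (−0.85 ± 0.65, adjusted p = 0.407). The call of atp5o.L was lost without the shallower TKD library (adjusted p = 0.200). Across the 55 pairs, which share their libraries and some of their reads, Pearson's r between L and S fold changes was 0.53. With L and S rows added up before the test, 26 of 114 symbols rose and 6 fell.

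**Figure D5:**
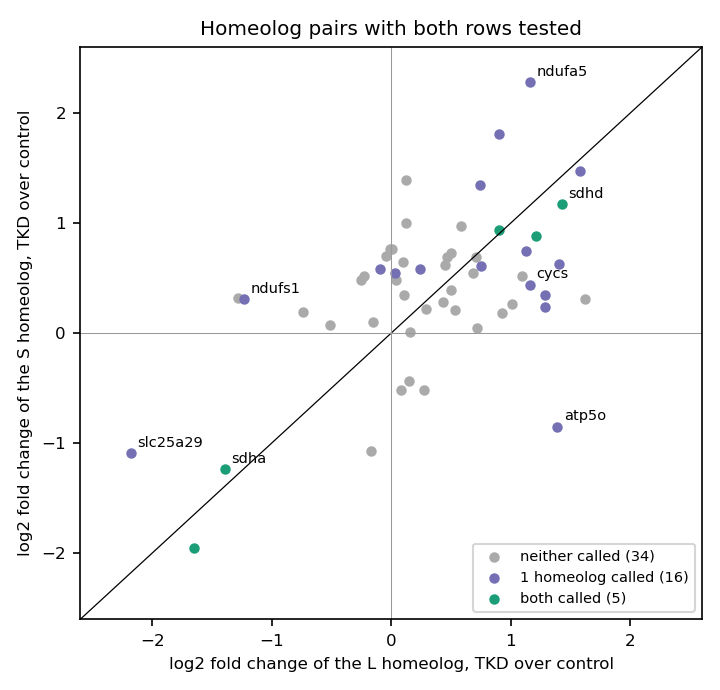
log2 fold change (TKD over control, limma-voom) of the S homeolog against the L homeolog for the 55 pairs with both rows tested, with the line of equal change. Green pairs have both homeologs called, purple pairs 1 and grey pairs none, and atp5o lies farthest from the line with 1.39 for L and −0.85 for S.

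The 28 members with too few reads for the test include 5 at 0 in all libraries, and slc25a4.L, slc25a4.S, sdhaf2.S, sdhc.L and ndufa8.S. No direction is given for them.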

How the data were processed

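RNA from 4 samples (2 TKD, 2 control) had been depleted of ribosomal RNA and sequenced as single reads of 75 nt. The authors mapped these with STAR to *X. laevis* genome JGI 9.1 with 1 mismatch allowed and used DEseq to compare the groups. Both names stand in the submitters' processing notes, with no version in the sources used here. The deposited table's signal columns hold the authors' group means of read counts divided by size factors. Its other columns hold the authors' fold changes, p-values and adjusted p-values, which were not used.

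Each such mean adds up whole numbers of reads from both libraries, each read worth a fixed step, and these steps gave the size factors (1.0635 and 0.6047 for TKD, 1.972 and 1.2772 for control) and the reads of each library. The solution was unique in 45088 of 45098 rows, which make up 93.1% of TKD signal and 89.2% of control signal, and in all members. The other 10 rows were left out of totals. The test was limma-voom (limma 3.58.1, R 4.3.3) with size factors on the 17026 rows that reached 10 reads in 2 or more libraries, two-sided, with Benjamini-Hochberg adjustment over these rows and a false discovery rate of 10%. The recovery and the fit were tested on simulated data. Fold changes are given with the SE of the fit. Read shares have Wilson intervals of 95%. Other steps used Python 3.11.15, NumPy 2.4.6, pandas 2.3.3 and matplotlib 3.10.9.

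Members and lists were chosen with earlier results of these data known. Named are, per role, the 2 members lower and the 2 higher with the lowest adjusted p (4 and 4 for carriers), the member with the highest mean, the 6 with the largest changes, their homeologs, and slc25a3, slc25a4 and cycs. Of each list outside the rule up to 3 were eligible. Some rows that meet this rule stay in the counts and are not reported here by name. Other rows named (ndufs5.L, ndufb7.L, cox4i1, cox7b, atp5a1 and atp5o) were chosen after their values were seen, as were the core and accessory split and the ratios within libraries. Alternatives were library totals, medians of ratios, other filters, thresholds and pseudocounts, a trend fit, thinning, summed homeologs, each library left out and both pairings.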

Additional observations from a re-analysis of the deposited data

How the results depend on the processing

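The upward shift of the members held in direction under each setting run, and the number of calls did not. The member median was 0.47 with all libraries and size factors, 0.65 with library totals and 0.42 to 0.59 with a library left out. Members that fell numbered 2 to 10 and members that rose 13 to 29 when a library was left out. At a false discovery rate of 5%, 4 fell and 21 rose (2.37% and 12.4%), beside 9.6% and 5.27% of all rows. Since the deposited means do not say which library carries which replicate number, both possible pairings were fitted with a replicate block. Pairing the deeper TKD with the deeper control library gave 4 lower and 11 higher (2.37% and 6.51%), beside 6.92% and 2.75% of all rows. Pairing the deeper TKD with the shallower control library gave 15 lower and 68 higher (8.88% and 40.2%), beside 22.1% and 21.2% of all rows. Deviations from the group means correlated at 0.495 over 17026 rows in the second pairing and −0.495 in the first. With 2 libraries a group these values must be equal in size and opposite in sign, but which pairing is positive is not fixed. The positive value shows variation shared within the second pairing. Whether this comes from a common replicate was not tested, and neither pairing was chosen. Signs changed in rows that missed the test: with a library left out, slc25a3.L ranged from −0.20 to 0.27, timm22.S from −0.12 to 0.55 and ndufs1.S from −0.61 to 0.97, and uqcrfs1.L stood at 0.09 with library totals. The cause was not tested. Medians of ratios (36 higher, 8 lower), a mean of at least 50 (32 and 8 of 101 tested), trend fits with pseudocounts of 1 and 10 (33 and 9, 34 and 9), no filter (29 and 6), thinning to the smallest library (27 and 7) and a 2-fold minimum (27 and 7) stayed within 1.5 times. Across the settings just listed, 15.1% to 31.7% of the members tested rose and 3.12% to 7.92% fell. Beside them, 6.1% to 15.3% of all rows rose and 9.1% to 20.8% fell. The search of promoters for TATA and other motifs was not run, and sequences of promoters and proteins were not used here. With 2 libraries a group, rows with few reads can miss the threshold at large changes.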

Other observations

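Mitochondrial genes outside the naming rule were mixed in direction from list to list, and are set beside the 10.3% of all rows that rose and the 14.3% that fell. Of 46 rows tested for other assembly factors and coenzyme Q synthesis, 10 rose and 3 fell in TKD embryos (21.7% and 6.52%, median log2 fold change 0.51), with usmg5.1, a small protein bound to ATP synthase, at 159 and 137 normalized counts in TKD embryos, against 42.6 and 72.8 in control embryos (1.48 ± 0.32, adjusted p = 0.022 by limma-voom). The import and protease list had 7 higher and 1 lower of 41 (17.1% and 2.44%, median 0.38), including the chaperonin hspe1.L with 200 and 255 in TKD embryos, against 110 and 127 in control embryos (0.93 ± 0.24, adjusted p = 0.0394). The list of membrane shape and outer channels had 5 higher and 5 lower of 44 (11.4% each, near the shares of all rows, median −0.10). There apoo.L, of the complex that shapes cristae, rose (1.89 ± 0.38, adjusted p = 0.0166), and rhot2.L, which links mitochondria to motors, fell (−1.70 ± 0.42, adjusted p = 0.0329).

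Genes for mitochondrial DNA and its transcription had 2 higher and 5 lower of 30 (6.67% and 16.7%, near the shares of all rows, median −0.13). The gene gabpa encodes the DNA-binding subunit of GABP, also called NRF2, which in mammals binds promoters of many respiratory chain genes. The row gabpa.S had 147 and 198 normalized counts in TKD embryos, against 522 and 604 in control embryos (−1.75 ± 0.24, adjusted p = 0.00512), and gabpa.L had 253 and 243 in TKD embryos, against 488 and 496 in control embryos (−0.98 ± 0.20, adjusted p = 0.0172). Both rows fell by more than the spread within either group. The mitochondrial thymidine kinase tk2.S had 109 and 84.3 in TKD embryos, against 278 and 282 in control embryos (−1.50 ± 0.25, adjusted p = 0.00927). In the list labelled uncoupling and other carriers, 0 of 15 rose and 3 fell (20% lower, median −0.29). The 3 were both homeologs of nnt and the row gpd2.S (−1.09 ± 0.34, adjusted p = 0.0649). The transhydrogenase nnt, which uses the proton gradient to make NADPH, fell in both homeologs, with 153 and 169 for nnt.L in TKD embryos, against 487 and 457 in control embryos (−1.56 ± 0.22, adjusted p = 0.0053). These lists were written with earlier results of the series known.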
